A study of Oryza sativa with 12 samples.

Results

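Leaf long non-coding RNAs (lncRNAs) of the rice cultivars Dongnong422 and Kongyu131 were compared in plants labelled as control, with no cold treatment. Members were chosen by their labels: the 3 control libraries of Dongnong422 and the 3 of Kongyu131, which are 6 of the 12 libraries of the study. The other 6 libraries are leaves of the same cultivars after cold, 3 for each. All were leaves of Oryza sativa taken at booting, the stage at which the young panicle swells inside the sheath of the flag leaf. For every library the labels give growth in the natural environment. The cold protocol of 17 °C for 13 days, with 16 h of light and 8 h of dark in an incubator, is attached to the labels of every library, controls included, so the temperature and the place of the controls are not stated apart. Leaves were sampled at random per bucket, and the labels do not say how many plants stand behind a library, so p-values measure the spread between these libraries, which may be technical. Of the 1485 lncRNA transcripts of 1039 loci listed in the study, the 1413 with a mean of at least 0.1 FPKM over the 6 control libraries were tested, and 72 fell below that level. FPKM counts the sequenced fragments of a transcript relative to its length and to all fragments mapped in that library. The lowest mean kept was 0.1 FPKM and the highest left out was 0.099 FPKM.

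LncRNAs are transcripts without a recognised protein-coding sequence. Long intergenic ones (lincRNAs) lie between protein-coding genes, and antisense lncRNAs are made from the strand opposite another gene. In plants, some lncRNAs act on chromatin or on the transcription of neighbouring genes, and some bind small RNAs, but most have no known role. Expression of lncRNAs is often low and often differs between varieties of a species. The tables held 818 lincRNAs and 595 antisense lncRNAs among those tested. They gave 0 gene symbols, host genes or positions, and 0 identifiers matched the RefSeq rice gene table, so no role, sequence or position is given for any lncRNA and leaf markers could not be looked up.

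The control libraries fell apart by cultivar. On the log2(FPKM + 0.1) scale, with values as deposited, the first principal component held 63.4% of the variance over the 1413 lncRNAs and placed the Kongyu131 libraries between −34.52 and −33.42 and the Dongnong422 libraries between 30.9 and 38.09. Pearson correlations over the 1413 lncRNAs were 0.861 to 0.895 within Kongyu131, 0.847 to 0.856 within Dongnong422 and 0.564 to 0.608 between the cultivars. These values describe the libraries, and lncRNAs are not independent replicates. The 1413 include 130 lncRNAs listed at 0 in all 3 control libraries of one cultivar. Those passed the filter through the other cultivar alone and so had to set the cultivars apart. Their part in the separation was not tested. The 10 highest lncRNAs held 98.45% to 99.29% of the listed FPKM of a control library, and the median listed lncRNA stood at 0.534 to 0.677 FPKM. Whole-read steps in low values of loci with 1 transcript gave an estimate of the depth of the libraries relative to Kongyu131 replicate 1. It was 1.08 and 1.04 for Kongyu131 replicates 2 and 3, and 1.43, 1.06 and 1.49 for Dongnong422 replicates 1, 2 and 3. Estimated depth thus moved with the cultivar except in Dongnong422 replicate 2. Its part in the results below was not tested.

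More lncRNAs were listed above 0 FPKM in Dongnong422 control leaves, at 1384, 1414 and 1391 per library, than in Kongyu131 control leaves, at 1364, 1372 and 1373. The groups did not overlap, and the means were 1396 ± 15.7 and 1370 ± 4.93 (SD, n = 3 each). An exact permutation test of 3 against 3 libraries gave p = 0.1, two-sided, the smallest value this design allows. At a level of 0.1 FPKM or more the means were 1238 ± 15.7 in Dongnong422 and 1179 ± 8.96 in Kongyu131 (exact p = 0.1). At 1 FPKM or more they were 547.7 ± 20.3 and 533 ± 37.6, and the groups overlapped (exact p = 0.7). Estimated relative depth, given above, was also higher in Dongnong422 replicates 1 and 3. Dongnong422 replicate 2, with the most lncRNAs above 0 (1414), had a relative depth of 1.06, within the Kongyu131 range of 1 to 1.08. The part of depth in these numbers was not tested.

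Of the 1413 lncRNAs, 151 (10.7%) differed between the cultivars in control leaves. Of these, 78 (5.52% of those tested) were higher in Dongnong422 and 73 (5.17%) were higher in Kongyu131, so neither cultivar held most of the differences. A lncRNA counts as called here when limma's moderated test on log2(FPKM + 0.1) gave a two-sided p that, after Benjamini-Hochberg adjustment over all 1413, was under 0.05. At an unadjusted p under 0.05 there were 294. In all 151 calls the 3 libraries of one cultivar lay above the 3 of the other, which was so for 26.2% of the lncRNAs tested, 13.5% with Dongnong422 higher and 12.7% with Kongyu131 higher. The smallest called log2 difference was 1.29 among those higher in Dongnong422 and 1.17 among those higher in Kongyu131, so every call was larger than 2-fold on this scale. The count ranged from 127 to 147 when each library was left out in turn, and 114 of the 151 lncRNAs were called in every one of these 6 fits.

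**Figure D1:**
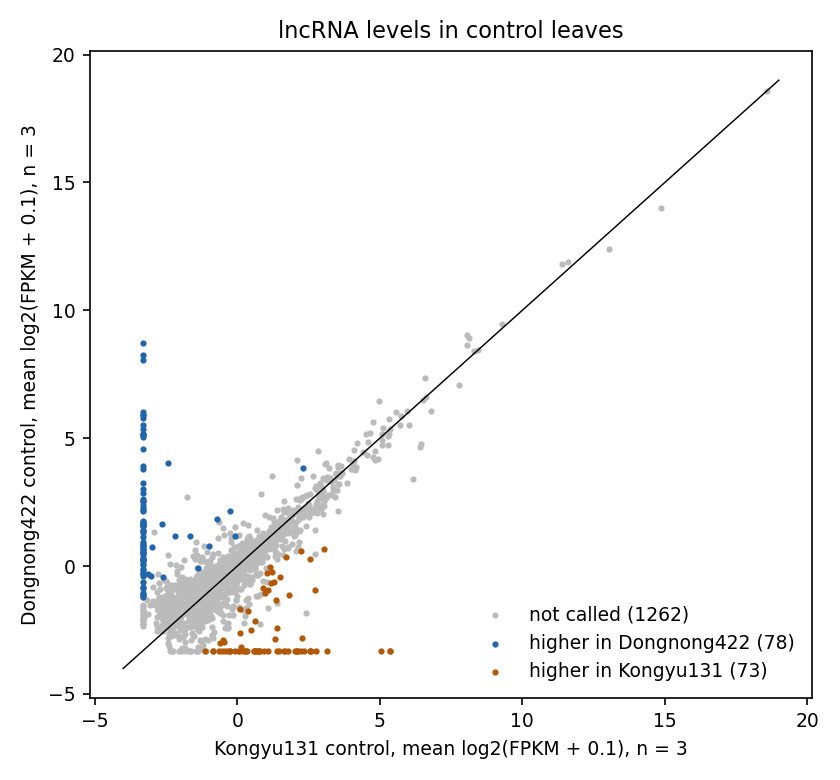
Mean log2(FPKM + 0.1) of each of the 1413 lncRNAs in the 3 Kongyu131 (horizontal axis) and the 3 Dongnong422 (vertical axis) control libraries, with the line of equal levels. The 78 lncRNAs called higher in Dongnong422 and the 73 called higher in Kongyu131 lie mostly along the edges where one cultivar is listed at 0 FPKM.

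Most differences were between a cultivar with a measured level and one listed at 0. Of the 78 lncRNAs higher in Dongnong422, 60 were listed at 0 in all 3 Kongyu131 control libraries. Of the 73 higher in Kongyu131, 43 were listed at 0 in all 3 Dongnong422 control libraries. A listed 0 can stand for a lack of reads or for an estimate that failed, and a lncRNA at 0 in one cultivar passed the filter through the other alone, so it had to differ. The sources used here do not say whether 1 reference sequence served both cultivars, and the part of sequence differences between the cultivars in these zeros was not tested.

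In total, 68 tested lncRNAs were at 0 in every Kongyu131 control library and above 0 in every Dongnong422 one, and 47 showed the reverse. The former comprised 50 lincRNAs (73.5%) and 18 antisense lncRNAs, and the latter 36 lincRNAs (76.6%) and 11 antisense lncRNAs, where lincRNAs made up 57.9% of all lncRNAs tested. Means in the cultivar that had them ran from 0.254 to 437 FPKM for those of Dongnong422, with a median of 2.57 FPKM, with 17 at 10 FPKM or more and 3 at 100 FPKM or more. Those of Kongyu131 ran from 0.237 to 41.9 FPKM, with a median of 1.62 FPKM, with 3 at 10 FPKM or more and 0 at 100 FPKM or more. Where at least 1 FPKM in every library of the other cultivar was asked for, 45 and 26 were left, each of them called. Values at 0 have no spread and lower the pooled spread behind these calls. With the spread of the cultivar above 0 alone, a choice made after the data were seen, the total of calls was 139 (71 higher in Dongnong422 and 68 in Kongyu131). The same limits hold for the adjusted p given below for single lncRNAs at 0 throughout one cultivar. Those values are no separate support for a difference.

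The lincRNA LNC_001480, the sole listed transcript of locus XLOC_058068, had the highest mean and the largest difference of all calls. It stood at 339, 603 and 368 FPKM in Dongnong422 control leaves and was listed at 0 in all 3 Kongyu131 control libraries (limma adjusted p = 8.81e-07). It was 1 of the 19 lncRNAs with a mean of at least 100 FPKM over the 6 libraries, of which 3 were called. The lincRNA LNC_000317 (XLOC_013809) stood at 99.1, 620.3 and 476 FPKM in Dongnong422 and was likewise listed at 0 in Kongyu131 (limma adjusted p = 2.02e-05). Dongnong422 replicate 1 was low for this lncRNA and far below the other two. LNC_000721 (XLOC_027198), a lincRNA named after its values were seen, was the remaining call with a mean of at least 100 FPKM. It stood at 157, 282 and 423 FPKM in Dongnong422 and was listed at 0 in Kongyu131 (limma adjusted p = 1.81e-06). All 3 were thus at 0 in every Kongyu131 control library, and no fold is given against a listed 0.

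Higher in Kongyu131 were the lincRNAs LNC_001030 (XLOC_038619) and LNC_000414 (XLOC_016383), both the sole transcript of their locus and both listed at 0 in the 3 Dongnong422 control libraries. LNC_001030 stood at 34.3, 56.1 and 35.3 FPKM in Kongyu131 (limma adjusted p = 1.81e-06). LNC_000414 stood at 56.7, 32.4 and 36.3 FPKM (limma adjusted p = 1.81e-06). Replicate 2 was thus the highest library for the one and the lowest for the other. These were the highest means among calls in that direction.

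Among antisense lncRNAs of loci with 1 transcript, LNC_000466 (XLOC_017856) and LNC_001139 (XLOC_043722) were listed at 0 in Kongyu131. LNC_000466 stood at 7.02, 67.0 and 29.3 FPKM in Dongnong422 control leaves (limma adjusted p = 0.000306), with a wide spread between the replicates. LNC_001139 was steadier, at 7.55, 8.16 and 6.19 FPKM (limma adjusted p = 5.20e-06). In the other direction, LNC_000734 (XLOC_027933) stood at 4.94, 3.06 and 6.35 FPKM in Kongyu131 and was listed at 0 in Dongnong422 (limma adjusted p = 3.06e-05). LNC_000251 (XLOC_012271) stood at 1.73, 6.23 and 2.44 FPKM in Kongyu131 and was listed at 0 in Dongnong422 (limma adjusted p = 0.000374). Replicate 2 was well above the other two for LNC_000251. The library kit marks strand, but the sources used here give no strand setting for the read assignment. Reads of the opposite gene may therefore be part of an antisense value.

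**Figure D2:**
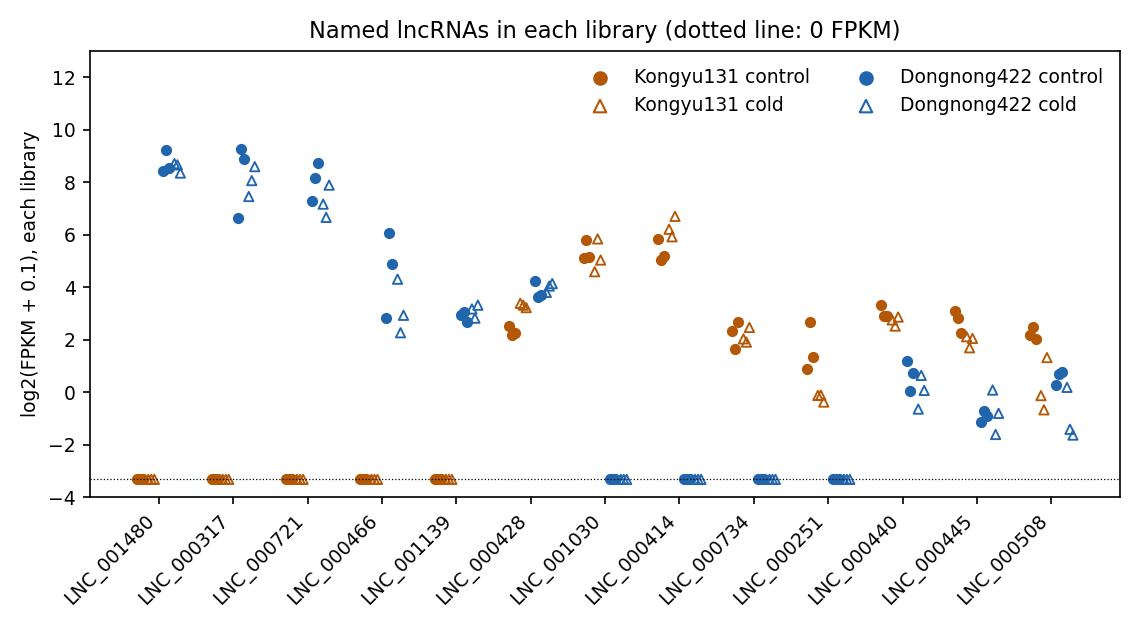
Level of 13 named lncRNAs on the log2(FPKM + 0.1) scale in each of the 12 libraries, with circles for control and triangles for cold leaves and a dotted line at 0 FPKM. LNC_001480, LNC_000317, LNC_000721, LNC_000466 and LNC_001139 lie on the dotted line in all 6 Kongyu131 libraries, and LNC_001030, LNC_000414, LNC_000734 and LNC_000251 in all 6 Dongnong422 libraries.

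Some differences were graded, between levels measured in both cultivars. Of the 854 lncRNAs with at least 0.1 FPKM in every control library, 24 (2.81%) were called, 6 higher in Dongnong422 and 18 higher in Kongyu131. The limit of 0.1 FPKM in every library itself leaves out lncRNAs near 0 in one cultivar, so this share is not comparable with that of the others. The 24 comprised 11 of the 376 antisense lncRNAs and 13 of the 478 lincRNAs among these 854. Their folds on the log2(FPKM + 0.1) scale ran from 2.26 to 12.6 with a median of 3.65. That scale understates the change of low lncRNAs. Of the 24, 5 were called in every fit with a library left out. They are described next and were named after their values were seen.

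The antisense lncRNA LNC_000428 (XLOC_016568) was the 1 of these 5 with the higher level in Dongnong422. It stood at 18.7, 12.3 and 12.8 FPKM there and at 5.65, 4.38 and 4.64 FPKM in Kongyu131. The lowest Dongnong422 library was more than 2-fold above the highest Kongyu131 library. The log2 difference was 1.54 (SE 0.268, limma adjusted p = 0.00882), or 2.91-fold.

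The other four were higher in Kongyu131. The antisense lncRNA LNC_000445 (XLOC_017287) had the largest fold of them, at 8.50, 7.04 and 4.68 FPKM in Kongyu131 and at 0.357, 0.512 and 0.431 FPKM in Dongnong422. Its log2 difference, Dongnong422 minus Kongyu131, was −3.65 (SE 0.310, limma adjusted p = 0.000159), a 12.6-fold higher level in Kongyu131, and −2.40 with a pseudocount of 1 FPKM (adjusted p = 0.000281, with 2.57e-05 to 0.00298 over all alternatives). The lowest Kongyu131 library was still far above the highest Dongnong422 library. The antisense lncRNA LNC_000440, 1 of 4 listed transcripts of XLOC_016981, stood at 9.88, 7.34 and 7.42 FPKM in Kongyu131 and at 2.17, 0.935 and 1.57 FPKM in Dongnong422 (log2 difference −2.38, SE 0.348, limma adjusted p = 0.00349). It was 5.21-fold higher in Kongyu131, and no libraries overlapped.

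The lincRNA LNC_000326 (XLOC_014053) stood at 4.37, 3.48 and 2.64 FPKM in Kongyu131 and at 0.301, 0.259 and 0.589 FPKM in Dongnong422 (log2 difference −2.93, SE 0.358, limma adjusted p = 0.00132). All Kongyu131 libraries were above all Dongnong422 libraries, by 7.62-fold on the fitted scale, and the difference was −1.69 with a pseudocount of 1 FPKM (adjusted p = 0.00101, with 6.59e-05 to 0.0126 over all alternatives). The lincRNA LNC_000508 (XLOC_019409) stood at 4.47, 5.43 and 3.97 FPKM in Kongyu131 and at 1.11, 1.50 and 1.62 FPKM in Dongnong422 (log2 difference −1.65, SE 0.270, limma adjusted p = 0.00639). Its 3.14-fold difference lost its call when all 12 libraries shared an estimate of the spread (adjusted p = 0.0772, the highest of its alternatives, which started at 0.00336).

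LincRNAs were called more often than antisense lncRNAs, at 105 of 818 (12.8%) against 46 of 595 (7.73%), beside 10.7% of all. Both classes were split evenly by direction, with 54 lincRNAs higher in Dongnong422 and 51 in Kongyu131, and 24 and 22 antisense lncRNAs. Listed zeros moved with the class: 10.5% of lincRNAs but 4.87% of antisense lncRNAs were at 0 in all libraries of one cultivar. The typical size of the log2 difference was 0.568 for lincRNAs and 0.463 for antisense lncRNAs (medians of the absolute difference), with median SEs of 0.468 and 0.431. Among loci with 1 listed transcript, 80 of 499 lincRNAs (16.0%) and 27 of 310 antisense lncRNAs (8.71%) were called. Among lncRNAs with at least 0.1 FPKM in every control library, 13 of 478 lincRNAs and 11 of 376 antisense lncRNAs were called. The difference between the classes was not tested.

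Calls also differed with the number of transcripts of a locus and with level. Where a locus had 1 listed transcript, 107 of 809 lncRNAs (13.2%) were called. Loci with 2 transcripts gave 18 of 213 (8.45%), and loci with 3 or more gave 26 of 391 (6.65%), with median SEs of 0.414, 0.453 and 0.584 on the log2 scale. Values in the larger loci also depend on how Cufflinks splits a locus's fragments between transcripts. By mean level over the 6 libraries, 66 of 848 lncRNAs at 0.1 to under 1 FPKM (7.78%), 68 of 468 at 1 to under 10 FPKM (14.5%) and 17 of 97 at 10 FPKM or more (17.5%) were called. In the last group 14 were higher in Dongnong422 and 3 in Kongyu131, against 32 and 34 at the lowest level and 32 and 36 at the middle one. Listed zeros moved with level too: 6.84%, 8.55% and 17.5% of these groups were at 0 in all control libraries of one cultivar. At 10 FPKM or more, 14 were at 0 throughout Kongyu131 and 3 throughout Dongnong422, the same numbers as the calls. Such lncRNAs had to differ, as stated above. These shares were not tested against each other.

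**Figure D3:**
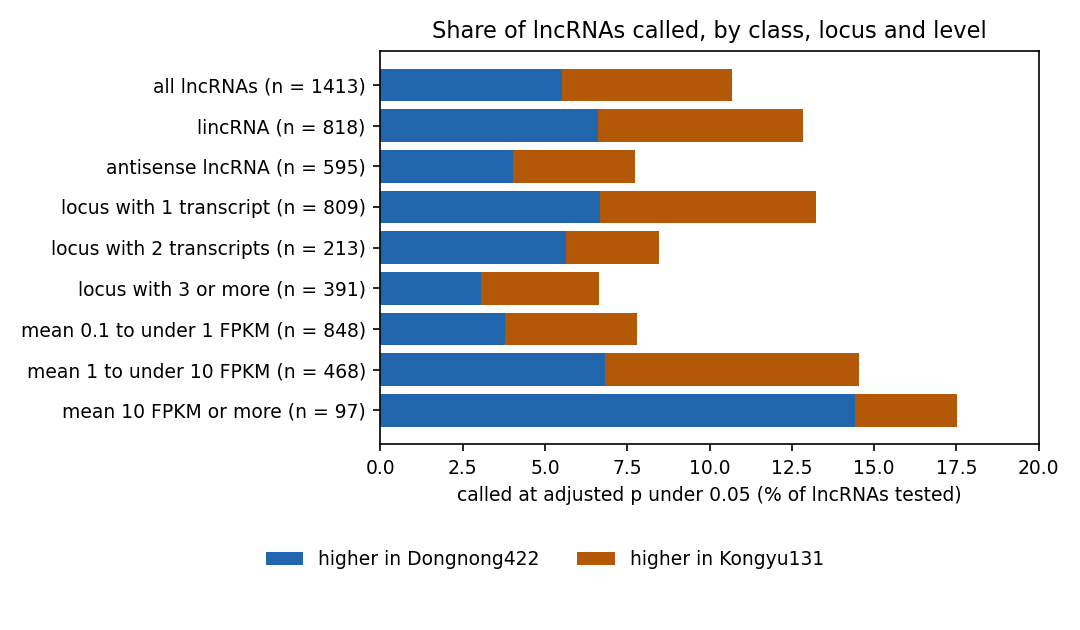
Share of lncRNAs called between the cultivars in control leaves, in percent of those tested, by class, by number of listed transcripts in the locus and by mean level, with each bar split by the cultivar with the higher level. The share is 12.8% for lincRNAs and 7.73% for antisense lncRNAs, and 17.5% at 10 FPKM or more, where the calls higher in Dongnong422 outnumber the others by 14 to 3. At that level 14 lncRNAs are listed at 0 in all Kongyu131 control libraries and 3 in all Dongnong422 ones.

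The most abundant lncRNAs were not among the calls. LNC_000712 (lincRNA, XLOC_026914), by far the highest, stood at 349316, 399150 and 432054 FPKM in Kongyu131 and at 274258, 531710 and 396453 FPKM in Dongnong422. The libraries of the cultivars overlapped, and the 95% interval of its log2 difference ran from −1.60 to 1.56 (limma adjusted p = 0.990), so a difference within those bounds was not detectable here. For the lincRNAs LNC_001334 (XLOC_052786), LNC_000283 (XLOC_012950) and LNC_000396 (XLOC_015935), log2 differences were −0.87, 0.28 and 0.41, with limma adjusted p of 0.431, 0.794 and 0.690. The antisense lncRNA LNC_000037 (XLOC_002219) stood at 7311, 9573 and 8428 FPKM in Kongyu131 and at 4567, 6497 and 5287 FPKM in Dongnong422. Its groups did not overlap, yet the log2 difference of −0.64 did not pass the test (interval −1.50 to 0.22, limma adjusted p = 0.398).

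A p that misses the threshold does not show equal levels, and the intervals say how close the levels were. On the log2(FPKM + 0.1) scale, the 95% interval lay within 2-fold either way for 214 of the 1413 lncRNAs (15.1%). Of these, 82 had a mean of 0.1 to under 1 FPKM, where the added 0.1 makes differences look smaller than in FPKM. Among those with a mean of at least 5 FPKM, the lincRNA LNC_000244 (XLOC_012177) had the narrowest bound. It stood at 44.3, 36.7 and 42.7 FPKM in Kongyu131 and at 41.3, 39.3 and 42.2 FPKM in Dongnong422 (log2 difference −0.01, interval −0.53 to 0.52). The next was the antisense lncRNA LNC_001023 (XLOC_038306), at 8.20, 8.73 and 7.27 FPKM in Kongyu131 and at 6.35, 9.05 and 8.29 FPKM in Dongnong422 (log2 difference −0.04, interval −0.63 to 0.54). Libraries of the cultivars were interleaved for both. A further 219 lncRNAs had no overlap between the cultivars in control leaves but were not called, and 29 of these had no overlap over all 12 libraries either.

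The FPKM of a locus was also summed over its listed transcripts. Of 1020 loci with a mean sum of at least 0.1 FPKM, 138 (13.5%) were called by limma, 74 higher in Dongnong422 (7.25%) and 64 higher in Kongyu131 (6.27%). Of the 138, 110 had 1 listed transcript, so their sum was the value already tested above, and 28 had several. Of 211 loci with several transcripts tested, 29 held a call and 11 held at least 2. In 10 of these 11 the called transcripts differed in the same direction. The 3 such loci with the highest sums were named after their values were seen. At XLOC_007274 the lincRNAs LNC_000143 and LNC_000144 stood at 55.4, 57.8 and 82.8 FPKM and at 11.3, 12.3 and 18.3 FPKM in Dongnong422 and were listed at 0 in Kongyu131 (limma adjusted p = 8.81e-07 and 4.28e-06). At XLOC_018670 the antisense lncRNAs LNC_000490 and LNC_000491 stood at 38.4, 25.1 and 42.3 FPKM and at 29.5, 41.8 and 36.7 FPKM in Dongnong422 and were listed at 0 in Kongyu131 (limma adjusted p = 1.81e-06 and 1.13e-06). Both transcripts of each locus were thus listed above 0 in the same cultivar, and the limits stated above for listed zeros hold for their adjusted p.

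XLOC_034438 was the reverse case, with all 3 of its lincRNAs listed at 0 in Dongnong422 control leaves. LNC_000927 was the highest, at 6.45, 6.32 and 4.82 FPKM in Kongyu131 (limma adjusted p = 7.66e-06). LNC_000926 stood at 2.32, 1.40 and 1.14 FPKM and LNC_000928 at 2.48, 2.24 and 3.50 FPKM in Kongyu131 (limma adjusted p = 0.000273 and 3.93e-05). The 3 transcripts share the fragments of 1 locus and are not independent cases. Listed zeros limit their adjusted p as stated above.

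At 1 locus, XLOC_052318, the cultivars differed in how the FPKM of the locus was divided among its transcripts. All 3 transcripts were low, and their values depend on how Cufflinks splits the fragments of the locus. The antisense lncRNA LNC_001323 stood at 0.537, 0.592 and 0.294 FPKM in Kongyu131 and under 0.001 FPKM in each Dongnong422 library. The antisense lncRNA LNC_001322 stood at 0.664, 0.538 and 0.735 FPKM in Dongnong422 and at 0.0235, 0.133 and 0.0502 FPKM in Kongyu131. The lincRNA LNC_001324 stood at 0.699, 0.555 and 0.723 FPKM in Dongnong422 and under 0.001 FPKM in each Kongyu131 library. LNC_001323 thus held 81.6% to 95.8% of the locus in Kongyu131. In Dongnong422 the locus was shared between LNC_001322, with 48.7% to 50.4%, and LNC_001324, with 49.6% to 51.3%. Limma called all 3 (adjusted p = 0.0152 for LNC_001323, 0.0117 for LNC_001322 and 0.00244 for LNC_001324). The log2 differences, Dongnong422 minus Kongyu131, were −2.48, 2.19 and 2.92, and a pseudocount of 1 FPKM gave −0.56, 0.62 and 0.73. The call of LNC_001323 ended with the replicate number as a block in the fit (limma adjusted p = 0.0556). It also ended without Kongyu131 replicate 2 (adjusted p = 0.0665, the highest of its alternatives, which started at 0.00212). Without that library no locus had calls in opposite directions, and there were 3 such loci without Kongyu131 replicate 1 and 2 without Dongnong422 replicate 2 or 3. The locus sum was 0.544 ± 0.191 FPKM in Kongyu131 and 1.30 ± 0.190 FPKM in Dongnong422 (SD, n = 3 each), a log2 difference of 1.16 (limma adjusted p = 0.0495). That call ended in every fit with a library left out (adjusted p from 0.0530 to 0.144).

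**Figure D4:**
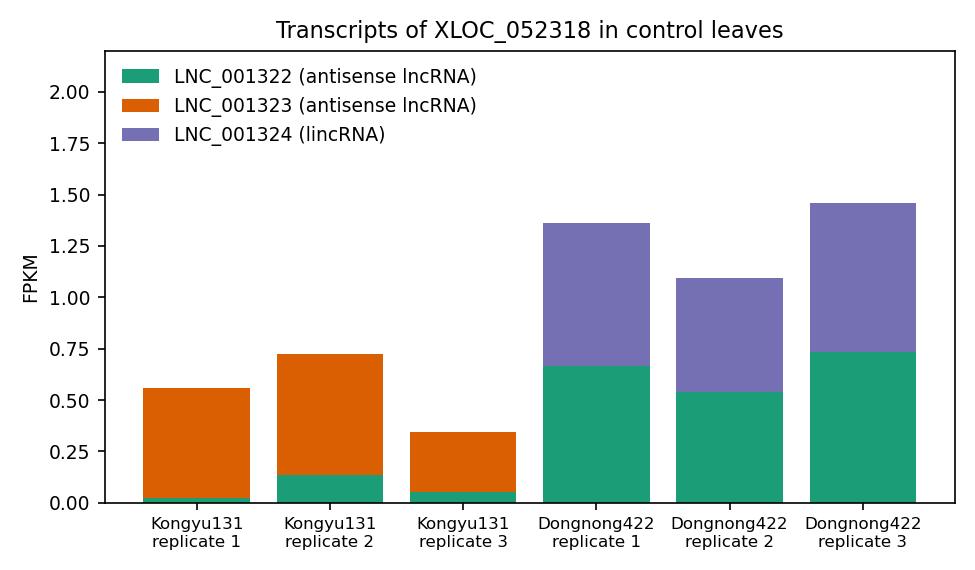
FPKM of the 3 listed transcripts of XLOC_052318 in each control library, stacked from 0. LNC_001323 makes up 81.6% to 95.8% of each Kongyu131 bar, while LNC_001322 and LNC_001324 make up nearly equal parts of each Dongnong422 bar.

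The cold leaves are other libraries of the same cultivars, and they share none with the control comparison. Fitted alone, the 6 cold libraries gave 223 calls (15.8%), 119 higher in Dongnong422 (8.42%) and 104 higher in Kongyu131 (7.36%). Called in both treatments were 117 lncRNAs, which is 77.5% of the control calls and 52.5% of the cold calls, and 0 of them changed direction. The log2 difference had the same sign in cold leaves for 146 of the 151 control calls (96.7%) and for 686 of the 1262 other lncRNAs (54.4%), beside 58.9% of all. For 123 of the 151, the 6 libraries of one cultivar lay above the 6 of the other over both treatments, which was so for 10.8% of all lncRNAs tested. The remaining 34 control calls were not called in cold leaves. Of the 151 control calls, 103 were listed at 0 in all control libraries of one cultivar. Where such a zero recurred in cold leaves, the sign could not turn. Of the 117 calls shared with cold leaves, 110 had a control library under 0.1 FPKM and 7 did not. These shares thus mostly describe lncRNAs listed at 0 or under 0.1 FPKM in a control library. How many of the shared calls rest on zeros that recurred is not given here.

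Most of the listed zeros recurred in cold leaves. Of the 68 lncRNAs at 0 in Kongyu131 control leaves and above 0 in Dongnong422, 60 showed the same in every cold library. Of the 47 in the reverse position, 41 did. LNC_001480 stood at 417, 403 and 325 FPKM in Dongnong422 cold leaves, LNC_001030 at 23.9, 57.0 and 32.6 FPKM in Kongyu131 cold leaves and LNC_000414 at 73.6, 60.3 and 103 FPKM there. Each was listed at 0 in all 6 libraries of the other cultivar. Of the 24 graded calls, 20 had the same sign in cold leaves and 7 were called there. LNC_000440 and LNC_000326 were among those called (log2 differences in cold leaves −2.69 and −2.77, limma adjusted p = 0.00489 and 0.00359). LNC_000445 was called at −2.73 (adjusted p = 0.0127) and LNC_000428 at 0.69 (adjusted p = 0.0290). LNC_000508 stood at −1.13 in cold leaves and was not called there (limma adjusted p = 0.377).

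**Figure D5:**
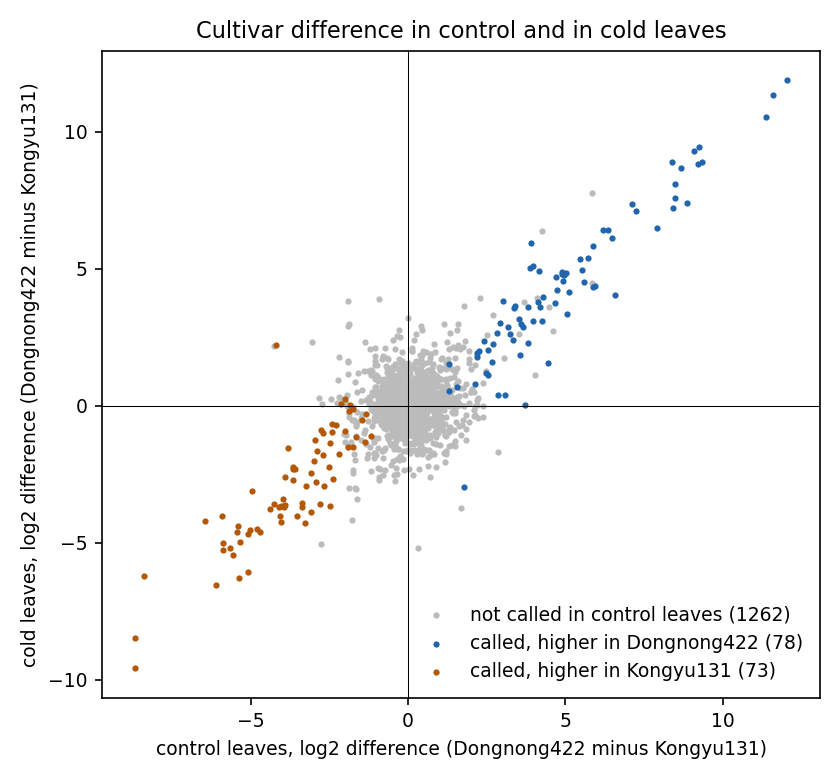
Log2 difference, Dongnong422 minus Kongyu131, of each of the 1413 lncRNAs in control leaves (horizontal axis) and in cold leaves (vertical axis). Of the 151 lncRNAs called in control leaves, 146 lie in the lower left or upper right quadrant, where both differences have the same sign. Among the 151, 103 are listed at 0 in all control libraries of one cultivar.

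The cultivar difference itself differed between control and cold leaves for 6 of the 1413 lncRNAs (0.425%) in a limma fit of all 12 libraries, with 215 at an unadjusted p under 0.05. Without Dongnong422 control replicate 3 it was 0, with 207 at an unadjusted p under 0.05. One of the 6 was a control call, the lincRNA LNC_000956 (XLOC_035220). It stood at 2.41, 1.72 and 3.40 FPKM in Kongyu131 control leaves and at 0, 0.166 and 0 FPKM in Dongnong422 control leaves (log2 difference −4.18, SE 0.490, limma adjusted p = 0.00104). Pseudocounts of 1 and 0.01 FPKM gave −1.71 and −6.54 for that difference, and its adjusted p lay between 0.000557 and 0.0167 over all alternatives. In cold leaves the order was turned in most libraries, at 0.271, 0.263 and 1.79 FPKM in Kongyu131 and at 2.90, 8.53 and 0.888 FPKM in Dongnong422. Kongyu131 replicate 3 and Dongnong422 replicate 3 overlapped there, and the cold difference of 2.22 was not called (limma adjusted p = 0.224). The difference of the differences was 6.40 (SE 1.15, limma adjusted p = 0.0399), and its call ended without each control library in turn (adjusted p from 0.0520 to 0.111).

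Besides LNC_000956, 4 control calls had the opposite sign in cold leaves. The antisense lncRNA LNC_000529 (XLOC_020078) had the highest mean of the 5. It stood at 2.81, 1.75 and 2.14 FPKM in Kongyu131 and at 0.824, 0.374 and 0.486 FPKM in Dongnong422 control leaves (log2 difference −1.85, SE 0.351, limma adjusted p = 0.0138). A pseudocount of 1 FPKM gave −1.05. In cold leaves the cultivars were close, at 1.23, 1.16 and 1.14 FPKM and at 1.26, 1.09 and 1.26 FPKM (log2 difference 0.03). The control call ended without Kongyu131 replicate 1 or 3 or Dongnong422 replicate 2 or 3 (adjusted p from 0.0581 to 0.0667).

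The lincRNAs LNC_000830 (XLOC_031095), LNC_000265 (1 of 3 transcripts of XLOC_012636) and LNC_001116 (XLOC_042939) were named after their values were seen. LNC_000830 was higher in Dongnong422 control leaves, at 1.98, 1.32 and 1.64 FPKM against 0.305, 0.771 and 0.256 FPKM in Kongyu131. In cold leaves it stood at 0, 0.742 and 0 FPKM in Dongnong422 and at 0.955, 1.64 and 2.1 FPKM in Kongyu131, so the groups changed places without overlap in either treatment. Its cold difference of −2.97 was not called (limma adjusted p = 0.101), nor was the difference of the differences (−4.76, adjusted p = 0.0582). LNC_000265 and LNC_001116 were higher in Kongyu131 control leaves, with log2 differences of −2.13 and −2.00 (limma adjusted p = 0.0169 and 0.0467), and stood at 0.06 and 0.23 in cold leaves. The control calls of these 3 lay near the threshold and often ended with a library left out, while the log2 differences stayed between 1.54 and 2.19, between −2.43 and −1.84 and between −2.49 and −1.52, in that order. A pseudocount of 1 FPKM gave 0.89, −0.88 and −1.03. LNC_000830 lost its call without any library but Kongyu131 replicate 2 (adjusted p up to 0.130), LNC_000265 without any but Kongyu131 replicate 3 or Dongnong422 replicate 2 (up to 0.0805) and LNC_001116 without any but Dongnong422 replicate 2 (up to 0.178). LNC_001116 also lost it with a pseudocount of 0.01 FPKM (0.0821), without the filter (0.0713) and without the variance trend (0.0624), and LNC_000830 in the fit of all 12 libraries (0.158). With the replicate number as a block in the fit, all 3 lost it. Limma adjusted p was then 0.078 for LNC_000830, 0.0511 for LNC_000265 and 0.0502 for LNC_001116.

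The other control calls not called in cold leaves had the same direction there. LNC_001381 is named from them after its values were seen, because its difference of the differences was closest to the threshold. This lincRNA, 1 of 3 transcripts of XLOC_053929, stood at 2.04, 1.91 and 2.32 FPKM in Dongnong422 control leaves and at 0.336, 0.0601 and 0.264 FPKM in Dongnong422 cold leaves. It was listed at 0 in all 6 Kongyu131 libraries. The control difference was called (limma adjusted p = 4.20e-05), and the cold difference (adjusted p = 0.0548) and the difference of the differences (adjusted p = 0.0511) were not.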

How the data were processed

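Leaf RNA was depleted of ribosomal RNA and made into strand-marking libraries, per the labels' protocols. TopHat2 2.0.9 and Cufflinks 2.1.1 were used, per the submitters' processing notes. The genome build, the annotation, the strand setting and how lncRNAs were classed are each not given in the sources used here. Deposited by the authors was an FPKM value for each of 1485 lncRNAs in each library, relative to length and mapped fragments, so no count test was used. No 2 libraries held identical values.

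Members, lists and the naming rule were chosen with earlier results of these data known. Values were used as deposited, without scaling, as log2(FPKM + 0.1), for the 1413 lncRNAs with a mean of at least 0.1 FPKM over the 6 control libraries. Limma 3.58.1 (R 4.3.3), with a variance trend, compared the 3 Dongnong422 with the 3 Kongyu131 control libraries (Benjamini-Hochberg adjusted p under 0.05, two-sided). Cold libraries were fitted alone, and all 12 together for the difference of differences. The procedure was also run on simulated normal values, with no lncRNA listed at 0 throughout one cultivar. That run therefore does not cover the calls against listed zeros.

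Among calls with at least 1 FPKM in the higher cultivar and no overlap, those named were the 2 largest differences by class and direction in loci with 1 transcript, and the 2 highest means by direction overall and among those at 0 in one cultivar. Also named, without those conditions, were the transcripts of the locus with opposite calls, the 5 most abundant lncRNAs, the 2 with the narrowest interval, and calls that changed with cold. Others are marked as named after their values were seen.

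Relative depth came from ratios of values between 0.01 and 0.4 FPKM in loci with 1 transcript. The joint estimate matched the step of 64 of 66 library pairs taken alone, where a step off by a ratio of small whole numbers also counted. Of 4778 ratios, 26.3% lay within 1.2% of a ratio of small whole numbers. The joint estimate was fitted to these same ratios, so neither value is a separate check. The share that would match by accident was not computed. Absolute depth is unknown, so no counting interval is given. The labels do not say that replicate numbers pair the libraries. Same-number correlations of deviations were 0.0093, 0.075 and −0.043 for numbers 1, 2 and 3. The highest other correlations were 0.045, −0.0076 and 0.057. With 3 libraries for each cultivar, these values cannot exclude pairing.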

Additional observations from a re-analysis of the deposited data

Results flagged for a closer look

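LNC_000956, a lincRNA of XLOC_035220, drew attention because its cultivar difference was not the same in the 2 treatments by a test of that difference itself. The Dongnong422 minus Kongyu131 difference was −4.18 in control leaves and 2.22 in cold leaves on the log2(FPKM + 0.1) scale, so the cultivar effect was 6.40 higher in cold (SE 1.15, limma adjusted p = 0.0399). It was the lower cultivar in control leaves, Dongnong422, that held 2.90, 8.53 and 0.888 FPKM in cold leaves. With a pseudocount of 1 FPKM the value was 3.03 (adjusted p = 0.0622) and with 0.01 FPKM it was 8.98 (adjusted p = 0.0547), with adjusted p from 0.0443 to 0.111 over all alternatives. The cause was not tested.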

How the results depend on the processing

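No called direction reversed in the alternatives run for the control comparison. In every call the libraries of the cultivars did not overlap, so only median-ratio scaling and quantile normalization could have turned a sign. The lack of reversals in the other alternatives was fixed in advance. With a mean of at least 1 FPKM, 565 lncRNAs were tested and 89 were called, 48 higher in Dongnong422 and 41 in Kongyu131. The 151 calls otherwise became 144 and 152 with pseudocounts of 1 and 0.01 FPKM, 155 without a filter, 149 with median-ratio scaling, 156 without a variance trend and 178 in the fit of all 12 libraries. Quantile normalization gave 164, moved the median difference by −0.152 and turned the split to 77 against 87. With a library left out, 68 to 83 were higher in Dongnong422 and 55 to 66 in Kongyu131. Counts at 0 in Kongyu131 and Dongnong422 ran from 68 to 74 and 47 to 52 with a library left out, and fell to 45 and 26 where 1 FPKM was asked for in the other cultivar. Called loci ran from 116 to 129 and calls shared with cold leaves from 107 to 116 with a library left out. Loci with opposite calls became 2 with a pseudocount of 0.01 FPKM and 2 in the fit of all 12 libraries, and 0 to 3 with a library left out.

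The count for the difference of cultivar effects became 13 and 3 with pseudocounts of 1 and 0.01 FPKM, and 0 to 8 with a library left out. With the replicate block it was 2, and the block gave 135 control calls (72 and 63) and 128 loci. The numbers share no stated batch, so this says nothing on effect size. Of 445 values for the 30 called lncRNAs named, 417 kept the call and 28 lost it. The cause of the losses was not tested. These lncRNAs were picked from the same data, 5 of them because they stayed called without each library in turn. Their share therefore does not measure how stable the calls are. Of all 151 calls, 114 were called in every fit with a library left out. Among the 48 calls not at 0 throughout one cultivar, 21 were. Depth limits low lncRNAs most: 848 of 1413 had a mean under 1 FPKM.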
